A study of Mus musculus with 14 samples.

Results

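Immunoglobulin segment rows were the 481 rows, of 22850 in the deposited liver expression table, whose gene type began with IG_. They comprised 355 variable (V), 25 diversity (D), 88 joining (J) and 13 constant (C) rows, and the other 22369 rows were typed as protein coding. RNA was sequenced in 14 liver libraries from C57BL/6N mice placed on their diets at 7 weeks of age: HFWD+sugar (5 livers), HFWD (5 livers) and chow (4 livers). HFWD is a high-fat Western diet in which fat gives 40% of the energy. HFWD+sugar is that diet plus drinking water with 42 g/L of sugar, made up of 55% fructose and 45% sucrose, and chow is a standard diet in which fat gives about 12% of the energy. All 3 groups share the strain and the starting age, and the labels used here give neither sex nor time on the diet. The study asks how sugar in the water alters hepatic gene expression in a Western diet model of fatty liver disease.

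The IG_ label was wider than its name. By symbol and position, 250 of the 481 rows belong to the antibody loci, with 142 at the heavy chain locus on chromosome 12, 105 at the kappa light chain locus on chromosome 6 and 3 at the lambda light chain locus on chromosome 16. Another 227 rows are T cell receptor segments, 172 at the alpha and delta locus on chromosome 14, 41 at the beta locus on chromosome 6 and 14 at the gamma locus on chromosome 13. The remaining 4 rows lie elsewhere or carry no segment name, and include Ptcra on chromosome 17, the gene of the pre-T cell receptor alpha chain. Grouping by chromosome alone put 142, 148 and 3 rows on chromosomes 12, 6 and 16, so that the chromosome 6 group mixed kappa with T cell receptor beta rows. All 481 rows had the same coordinates, strand and type in the mm9 gene annotation, which files T cell receptor segments under the same types.

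Antibodies and T cell receptors are built from these segments. In a developing lymphocyte, one V, one J and, in heavy, beta and delta chains, one D segment are cut at recombination signals and joined, and the joined exon is spliced to a constant region. A spliced antibody message therefore carries 1 V segment out of many and the constant region of its chain, and plasma cells, which secrete antibodies, hold very large amounts of it. The liver contains resident and passing B cells, plasma cells and T cells beside its hepatocytes, and hepatic cells in rodents carry dimeric antibody into bile.

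The sequences around the segments are shown first. Short motifs were far more frequent beside some classes of segment rows than beside coding rows, and other classes lacked them. Antibody V promoters are known for an octamer, ATTTGCAT, that binds Oct factors. It was searched on both strands in the 300 bases before each row. It stood there in 152 of 214 antibody V rows (71.0%): 86 of 112 heavy, 63 of 99 kappa and 3 of 3 lambda rows. T cell receptor V rows held it in 1 of 138 cases (0.725%), antibody D and J rows in 0 of 30 and coding rows in 413 of 22369 (1.85%). The 3 antibody V rows with values above the floor in 4 or more livers all held it. Their upstream windows are given on the strand of the row in mm9, with the octamer in capitals, for Igkv14-126 (chr6:67845871-67846170, + strand), Igkv2-112 (chr6:68169675-68169974, + strand) and Iglv3 (chr16:19241773-19242072, - strand).
Igkv14-126: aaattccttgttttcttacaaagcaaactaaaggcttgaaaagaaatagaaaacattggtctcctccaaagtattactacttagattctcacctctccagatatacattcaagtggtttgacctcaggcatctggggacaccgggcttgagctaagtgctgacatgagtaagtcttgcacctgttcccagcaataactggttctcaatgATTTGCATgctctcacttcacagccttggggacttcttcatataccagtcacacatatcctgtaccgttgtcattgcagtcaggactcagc
Igkv2-112: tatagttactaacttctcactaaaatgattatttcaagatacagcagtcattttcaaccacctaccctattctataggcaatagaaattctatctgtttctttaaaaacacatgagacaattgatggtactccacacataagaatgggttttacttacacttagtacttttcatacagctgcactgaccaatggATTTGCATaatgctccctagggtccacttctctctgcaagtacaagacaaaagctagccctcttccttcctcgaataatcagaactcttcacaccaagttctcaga
Iglv3: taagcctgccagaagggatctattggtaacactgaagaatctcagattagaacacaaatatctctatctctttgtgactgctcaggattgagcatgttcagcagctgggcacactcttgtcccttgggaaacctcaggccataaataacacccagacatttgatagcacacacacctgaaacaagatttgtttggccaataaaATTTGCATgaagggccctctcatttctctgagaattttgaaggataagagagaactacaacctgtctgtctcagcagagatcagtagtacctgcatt

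The octamer stood before 17 of the 21 antibody V rows above the floor in any liver and before 135 of the 193 that were at the floor in all (69.9%). Downstream, V segments end at the heptamer of the recombination signal, CACAGTG. It was searched on the row's own strand in the 9 bases after the row's end, and 235 of 355 V rows held it (66.2%), against 10 of 22369 coding rows (0.0447%). Among V rows with signal, Iglv3, Igkv14-126, Trbv31 and Trdv5 lacked it there. The 39 bases after 3 V rows with signal that held it are given with the heptamer in capitals, for Igkv2-112 (chr6:68170701-68170739), Trbv20 (chr6:41138977-41139015) and Trbv21 (chr6:41153044-41153082), all on the + strand.
Igkv2-112: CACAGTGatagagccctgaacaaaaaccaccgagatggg
Trbv20: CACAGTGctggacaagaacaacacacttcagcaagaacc
Trbv21: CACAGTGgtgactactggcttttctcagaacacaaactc

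D and J rows are so short that their sequences fit on a line. All 25 D rows (10 to 29 bases) and all 88 J rows (27 to 72 bases) were shorter than the planned read length of 100 bases, so no single read could lie inside one. The 21 heavy D rows hold 17 distinct sequences. Ighd2-5 and Ighd2-6 are identical, so a read from either could not be assigned by that sequence alone. The D rows Ighd1-1 (chr12:114720381-114720403), Ighd2-5 (chr12:114704238-114704254) and Ighd2-6 (chr12:114699580-114699596) and the J rows Ighj1 (chr12:114667992-114668044), Ighj3 (chr12:114667296-114667343) and Ighj4 (chr12:114666725-114666778) are shown on their own - strand. Capitals mark the letters of the conserved tryptophan and glycine motif of heavy J segments, TGGGG, 4 bases of any kind, GG, any base and AC, found on the row's own strand in 3 of 4 heavy J rows and in the first 54 bases of 12 of 22369 coding rows (0.0536%).
Ighd1-1: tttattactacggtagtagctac
Ighd2-5: cctactatagtaactac
Ighd2-6: cctactatagtaactac
Ighj1: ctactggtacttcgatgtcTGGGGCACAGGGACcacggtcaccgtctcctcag
Ighj3: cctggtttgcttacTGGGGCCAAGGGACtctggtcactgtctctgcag
Ighj4: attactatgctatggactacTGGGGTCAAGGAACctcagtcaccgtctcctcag

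Most segment rows were listed at 1, the lowest value of the table in every library, which stands for no or almost no reads. Only 37 of the 481 rows (7.69%) stood above this floor in any liver, and 444 were at it in all 14. The same share was 74.1% of coding rows, and 34.2% of the 3282 coding rows no longer than 2000 bases. By type, 32 of 355 V rows, 0 of 25 D rows, 1 of 88 J rows and 4 of 13 C rows were ever above it. The 1 J row was Ighj4, at 1.24 units in HFWD+sugar liver 4. By locus, the counts were 12 of 142 heavy, 9 of 105 kappa, 3 of 3 lambda and 12 of 227 T cell receptor rows. Of the 37 rows, 16 were above the floor in a single liver, 11 in 4 or more and 5 in all 14.

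**Figure D1:**
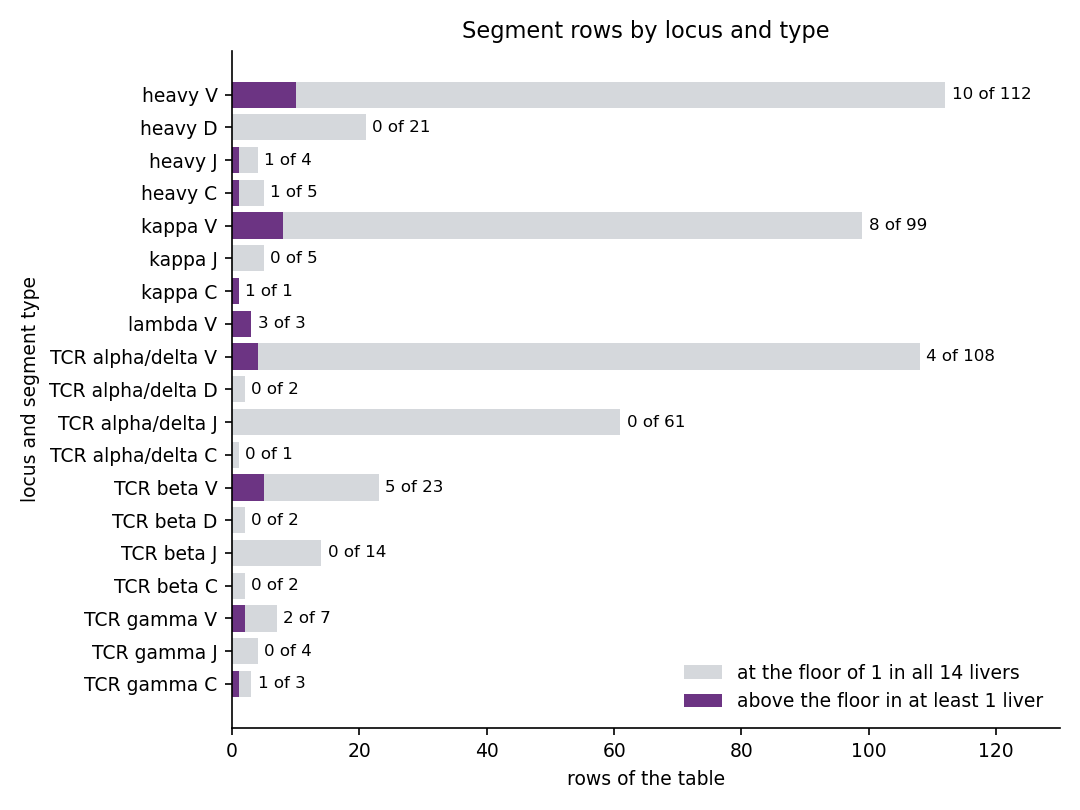
Horizontal bars give the number of rows for each locus and segment type. The grey bar is the full number of rows and the purple bar the number above the floor of 1 in at least 1 of the 14 livers, with both counts printed at the bar's end. Grey dominates every large class: 10 of 112 heavy V, 8 of 99 kappa V and 4 of 108 T cell receptor alpha/delta V rows were ever above the floor.

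The values that did stand above the floor rested on very few reads. They were 174 of 6734 values (2.58%). In each library the most frequent step among low values, 2.47 to 6.85 units, was taken as the worth of 1 read, and 59.7% of the segments' low values (95 of 159) fell on whole steps. On this scale 36.8% of the segment values above the floor were worth 1 read or less, against 9.98% over the whole table. Converted in this way, all antibody rows together came to 17.6, 26.0, 26.4, 23.1 and 26.1 read equivalents in the HFWD+sugar livers, 14.9, 13.3, 28.4, 21.3 and 15.0 in the HFWD livers, and 17.4, 14.3, 21.1 and 5.69 in the chow livers. The libraries held 7.19 to 9.31 M read equivalents on HFWD+sugar, 5.84 to 9.34 M on HFWD and 3.77 to 9.14 M on chow. Chow liver 4, with the fewest, was also the library with the fewest antibody read equivalents. These equivalents are weighted counts within the listed rows and not the sequencing depth.

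The number of segment rows above the floor per liver was 14, 16, 14, 18 and 14 on HFWD+sugar, 10, 10, 12, 10 and 13 on HFWD, and 12, 11, 12 and 8 on chow. Every HFWD+sugar liver had more than any liver of the other groups. Antibody rows alone numbered 7, 8, 7, 10 and 7 on HFWD+sugar, 5, 4, 7, 4 and 7 on HFWD, and 6, 5, 6 and 4 on chow, and here HFWD+sugar and HFWD overlapped. The share of all coding rows above the floor also had its highest mean on HFWD+sugar, at 62.7%, beside 60.7% on HFWD and 59.4% on chow. It ran from 61.6% to 64.6% in HFWD+sugar livers, 59.2% to 61.9% in HFWD livers and 54.0% to 61.9% in chow livers, and these ranges overlapped. Its part in the counts of segment rows was not tested, and a count over the members is given no p-value.

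**Figure D2:**
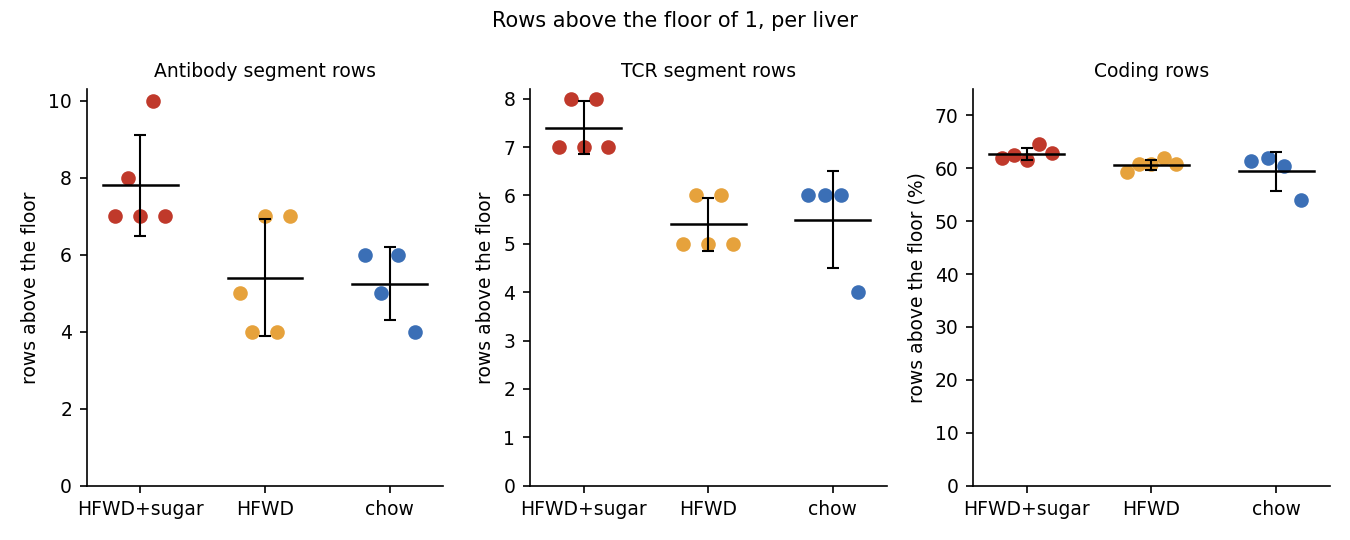
Each point is a liver, in the order HFWD+sugar (n = 5), HFWD (n = 5) and chow (n = 4) in every panel. The horizontal line is the group mean and the bar its SD. The left and middle panels count antibody and T cell receptor (TCR) rows above the floor of 1, and the right panel gives the percentage of coding rows above it. HFWD+sugar livers held 7 to 10 antibody rows against 4 to 6 in chow livers, and 61.6% to 64.6% of coding rows against 54.0% to 61.9%.

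Summed values say how much signal each locus carried. Each row at the floor adds 1 unit, so the heavy sum cannot be below 142, the kappa sum below 105 or the lambda sum below 3. The heavy sum averaged 145 ± 1.18 units on HFWD+sugar, 144 ± 1.73 on HFWD and 147 ± 3.59 on chow (SD, n = 5, 5 and 4), barely above its minimum in all diets. The kappa sum averaged 129.5 ± 7.69 on HFWD+sugar, 134 ± 12.4 on HFWD and 124 ± 12.3 on chow. The lambda sum was 33.6, 35.9, 38.6, 24.9 and 28.1 units in the HFWD+sugar livers, 21.4, 11.1, 33.5, 30.3 and 19.6 in the HFWD livers, and 21.7, 4.65, 25.0 and 26.3 in the chow livers. Its ranges overlapped between all pairs of diets, and the 1 chow liver far below the others was chow 2. The T cell receptor sum averaged 1207 ± 56.0 units on HFWD+sugar, 1214 ± 93.9 on HFWD and 1205 ± 295 on chow, and most of it came from 1 row, Tcrg-C.

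The constant region rows are the ones that a finished antibody or receptor message would share. Igkc, the kappa constant region (chr6:70676429-70676751, + strand), was above the floor in 2 of 14 livers, at 2.82 units in HFWD+sugar 2 and 1.72 units in HFWD+sugar 5. Ighm, the constant region of IgM (chr12:114659078-114660941, - strand), had 3.11, 1, 2.61, 2.47 and 2.60 units in the HFWD+sugar livers, 1, 1, 3.04, 2.68 and 1 in the HFWD livers, and 7.69, 1, 2.88 and 6.85 in the chow livers. In 8 of its 9 livers above the floor this was 1 read equivalent, and in chow 1 it was 3. The groups overlapped.

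Most other constant rows held no signal. The IgG and IgE rows Ighg, Ighg1, Ighg3 and Ighe, the T cell receptor rows Trac, Trbc1 and Trbc2, and the gamma rows Gm17004 and Gm16603 were listed at the floor in all 14 livers. Ptcra stood above it in HFWD 5 alone, at 1.32 units. Tcrg-C, the gamma constant row (chr13:19434055-19444212, + strand), was the exception: it had 848, 992, 908, 885 and 862 units in the HFWD+sugar livers, 922, 809, 1057, 898 and 877 in the HFWD livers, and 733, 1262, 617 and 1034 in the chow livers. Chow livers were both the lowest, chow 1 and 3, and the highest, chow 2. The row spans 10158 bases, of which the annotation counts 644 as exonic in 6 exons, and the table does not say whether its reads were exonic. Of 10 T cell markers, Cd3e, a chain of the receptor complex, was at the floor in all livers, while Cd3d, another such chain, averaged 20.2 units and Cd4, the co-receptor of helper T cells, 1.72.

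Some constant regions are in the table under another type. A further 12 rows with immunoglobulin or T cell receptor symbols were typed as protein coding, among them a second Ighe row, the IgG constant row Ighg2c and the lambda constant regions Iglc2 and Iglc3. Of these 12, 10 were at the floor in all livers. Iglc2 had 8.64, 1, 1.70, 4.25 and 2.60 units in the HFWD+sugar livers, 2.68 in HFWD 4 with the other HFWD livers at the floor, and 1 in all 4 chow livers. It was above the floor in 4 HFWD+sugar, 1 HFWD and 0 chow livers, so it reached the tests described next through the group where it was high. It was not called for HFWD+sugar against chow (adjusted p 0.143, limma). Its values are a description and support no difference between diets. Iglc3 was above the floor in 2 livers, at 1.33 units in HFWD+sugar 3 and 1.51 in HFWD 2.

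For the tests, rows above the floor in at least 4 livers were taken as log2(value + 1) and fitted with limma, a linear model with a spread shared across rows, over all 14770 such rows of the table. This left 11 of the 481 segment rows, which therefore are those with signal and not a sample of all segments. The call threshold was an adjusted p of 0.05 (Benjamini-Hochberg over all tested rows, 2-sided). For HFWD+sugar against chow, 9.05% of all tested rows were called (5.67% higher, 3.38% lower), and 0 of the 11 segment rows. For HFWD against chow, 3.38% of all tested rows were called (2.44% higher, 0.934% lower), and 0 of 11 segment rows. For HFWD+sugar against HFWD, 0% of all tested rows and 0 of 11 segment rows were called.

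At an unadjusted p under 0.05 in the same limma fit, 2 of 11 segment rows passed for HFWD+sugar against chow, where 24.8% of all tested rows did. The counts were 1 of 11 for HFWD against chow, where 16.2% of all rows passed, and 1 of 11 for HFWD+sugar against HFWD, where 8.62% did. Trbv31 and Trdv5 were the 2 rows of the first comparison, Trbv21 the 1 of the second and Trdv5 the 1 of the last. The median log2 difference over the 11 rows was 0.27, 0.05 and 0.21 in these 3 comparisons, beside 0.12, 0.04 and 0.05 over all tested rows. The 0.21 is the value of Trgv2 itself. Trdv5 and Trgv2 passed the filter through the HFWD+sugar livers, where they were high. The counts and medians that include them are therefore a description and support no difference between diets. Both comparisons with chow use the same 4 chow livers, so their values are not independent. In bulk liver RNA, fewer cells of a type and less RNA per cell cannot be told apart.

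**Figure D3:**
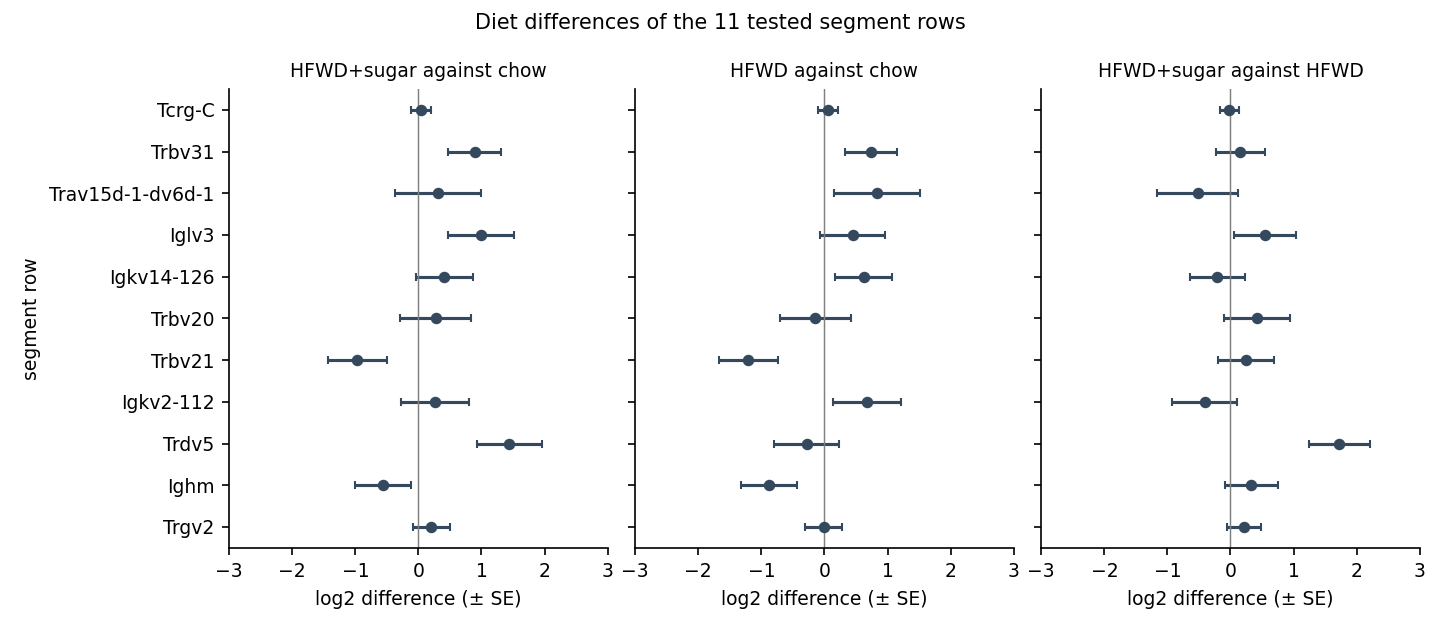
Points give the log2 difference of the 11 tested segment rows and bars the SE, from the limma fit on log2(value + 1). The panels run from HFWD+sugar against chow through HFWD against chow to HFWD+sugar against HFWD, and a point right of 0 means higher in the group named first. Trdv5 lies farthest to the right in the first and last panels, at 1.44 and 1.73, and Trbv21 lies left of 0 in both comparisons with chow.

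Antibody V rows above the floor in 4 or more livers were 3 in number. Iglv3, a lambda V segment (chr16:19241304-19241772, - strand), had 26.4, 33.9, 36.6, 19.96 and 26.0 units in the HFWD+sugar livers, 16.3, 9.06, 31.5, 28.3 and 17.6 in the HFWD livers, and 19.7, 2.65, 22.96 and 23.98 in the chow livers. All HFWD+sugar livers but number 4 were above every chow liver. The log2 difference of HFWD+sugar against chow was 0.99 ± 0.52 with an adjusted p of 0.249 by limma, and that of HFWD+sugar against HFWD was 0.54 ± 0.49 with an adjusted p of 0.750. Without chow 2, the first fell to 0.32.

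Igkv14-126, a kappa V segment (chr6:67846171-67846636, + strand), had 12.4, 16.9, 15.6, 13.9 and 31.3 units in the HFWD+sugar livers, 33.2, 20.6, 34.9, 15.6 and 7.92 in the HFWD livers, and 10.3, 15.9, 21.7 and 6.85 in the chow livers. All 3 groups overlapped. Igkv2-112, another kappa V segment (chr6:68169975-68170700, + strand), had 3.11, 9.87, 5.19, 9.70 and 2.60 units in the HFWD+sugar livers, 6.23, 7.52, 9.12, 10.5 and 5.15 in the HFWD livers, and 2.56, 15.7, 5.76 and 1 in the chow livers. Its chow livers spanned the whole range of the other diets. Over the 3 comparisons, the adjusted p of these kappa rows lay between 0.553 and 0.907 by limma.

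The lesser rows of each antibody locus were near the floor. After Iglv3, the lambda rows were Iglv1, above the floor in 3 livers with a highest value of 6.22 units in HFWD+sugar 1, and Iglv2, above it in 3 livers with at most 2.47. The third kappa V row by mean, Igkv13-84, reached 5.22 units in HFWD+sugar 3 and was above the floor in 3 livers. Heavy V rows were lower still. Ighv6-6 reached 4.55 units in chow 3, Ighv10-1 2.82 units in HFWD+sugar 2 and Gm17309 2.64 units in HFWD 5, and no heavy V row was above the floor in more than 3 livers. All 21 heavy D rows, 3 of 4 heavy J rows and all 5 kappa J rows were at the floor throughout.

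T cell receptor rows held 7 of the 11 tested. Trbv31, a beta V segment that lies beyond the constant regions in inverted orientation (chr6:41507690-41508370, - strand), had 38.9, 52.2, 33.4, 29.7 and 28.6 units in the HFWD+sugar livers, 16.6, 24.2, 45.6, 32.2 and 55.3 in the HFWD livers, and 9.56, 21.2, 14.4 and 41.1 in the chow livers. Chow 4, the shallowest library, was the 1 chow liver within the HFWD+sugar range. The log2 difference of HFWD+sugar against chow was 0.89 ± 0.42 with an unadjusted p of 0.0466 and an adjusted p of 0.195 by limma. With weights that let noisy libraries count for less the adjusted p was 0.0380, and without chow 2 and chow 4, the 2 libraries of lowest weight, it was 0.0388. Both fits reduce or drop the same chow livers, and leaving out both was chosen after seeing the data. Only these 2 of 23 alternative fits called Trbv31, and the adjusted p reached 0.458 by limma in another.

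Trdv5, a delta V segment that likewise lies inverted beyond its constant region (chr14:54768337-54768876, - strand), had 13.0, 8.46, 7.82, 9.89 and 2.53 units in the HFWD+sugar livers, 1, 6.04, 1, 1 and 1 in the HFWD livers, and 2.56, 1, 5.76 and 1 in the chow livers. All HFWD+sugar livers but number 5 were above every other liver. It was above the floor in 5 HFWD+sugar, 1 HFWD and 2 chow livers, so it passed the filter through the group where it was high. Its fitted log2 differences, 1.44 ± 0.51 against chow and 1.73 ± 0.48 against HFWD (SE), are therefore a description and support no difference between diets. The highest value, 13.0 units, was worth 4.18 read equivalents.

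Trbv21, a beta V segment (chr6:41152754-41153043, + strand), had 12.4, 5.64, 2.61, 12.4 and 10.4 units in the HFWD+sugar livers, 4.15, 12.1, 8.66, 7.96 and 2.64 in the HFWD livers, and 12.8, 21.2, 17.3 and 13.7 in the chow livers. Every chow liver was above every liver of both Western diets. These values rested on 1 to 5 read equivalents on HFWD+sugar, 1 to 4 on HFWD and 2 to 8 on chow. In read equivalents the groups overlapped, since chow 4, the shallowest library, had 2. The log2 difference was -0.97 ± 0.47 for HFWD+sugar against chow and -1.21 ± 0.47 for HFWD against chow, with adjusted p of 0.215 and 0.192 by limma, so neither passed. Of the 11 tested segment rows, Trbv21 was the 1 whose groups did not overlap, in both comparisons with chow. The share of all tested rows without overlap was not counted, so this does not set Trbv21 apart from the rest of the table.

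The other tested T cell receptor rows showed no order by diet. Trav15d-1-dv6d-1, an alpha and delta V segment, lay at 5.36 to 33.8 units in the HFWD+sugar livers, 21.1 to 29.1 in the HFWD livers and 1 to 37.0 in the chow livers, with chow 4 at the floor. Trbv20 lay at 7.42 to 18.3 units on HFWD+sugar, 1 to 15.1 on HFWD and 5.13 to 15.9 on chow. Trgv2 was above the floor in 5 livers, 3 on HFWD+sugar, 1 on HFWD and 1 on chow, and reached 2.82 units. Like Trdv5, it passed the filter through the group where it was high. For Tcrg-C the log2 difference was 0.03 ± 0.16 for HFWD+sugar against chow and 0.05 ± 0.16 for HFWD against chow. Without chow 2 and chow 4 these became 0.42 and 0.43, with adjusted p of 0.0290 and 0.0335 by limma. Those were the 2 chow livers highest in Tcrg-C, at 1262 and 1034 units, and leaving out both was chosen after seeing the data. Tcrg-C was called in 1 of 23 alternative fits for each comparison with chow, and its direction turned in 3.

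**Figure D4:**
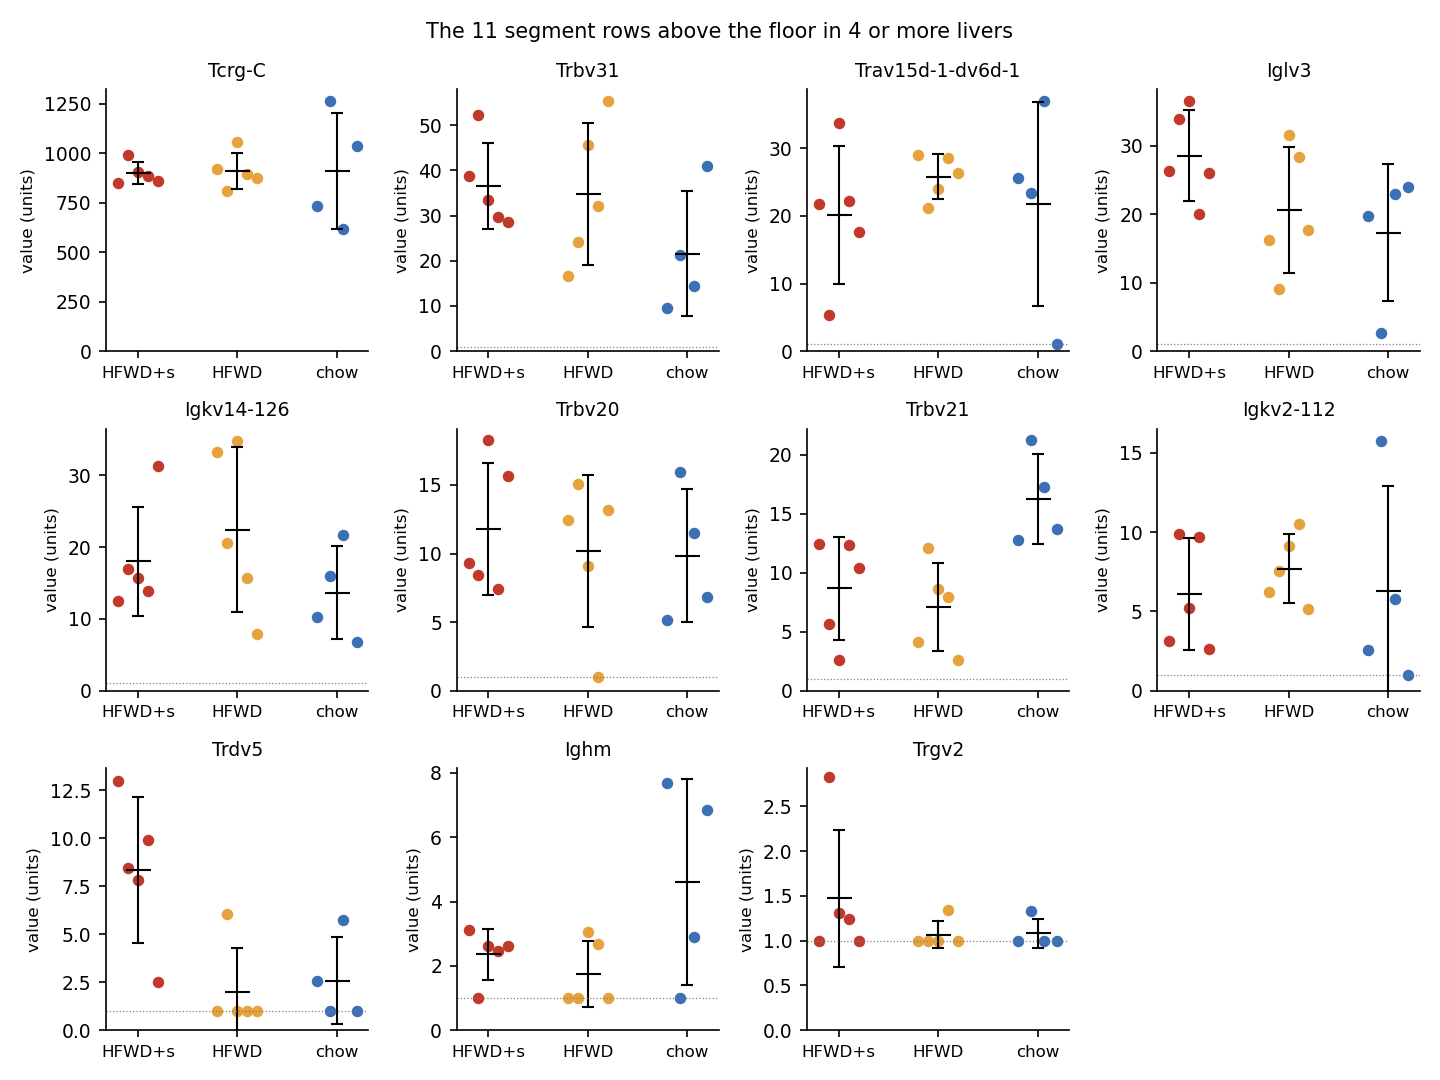
Each panel is 1 of the 11 tested segment rows and each point a liver, in the order HFWD+sugar (HFWD+s), HFWD and chow, on a linear axis of deposited units that starts at 0. The short line is the group mean, the bar the SD, and the dotted line the floor of 1. Chow livers stand above the others for Trbv21, at 12.8 to 21.2 units, and Trdv5 is highest in 4 of 5 HFWD+sugar livers.

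Of the 13 constant rows, 6 had no row on the opposite strand within 20 kb. The 4 pairs described here were chosen after their values were seen. Within 20 kb of Ighm, the one row on the + strand was Gm11029 (chr12:114655095-114657149), a predicted gene 1.93 kb away. It had 167, 199, 308, 179 and 192 units in the HFWD+sugar livers, 220, 228, 236, 266 and 227 in the HFWD livers, and 400, 436, 290 and 271 in the chow livers. All but 1 HFWD+sugar liver lay below every chow liver. It fell on HFWD+sugar against chow by 0.74 on the log2 scale (SE 0.18, adjusted p 0.0173, limma), and the call held in 20 of 23 alternative fits. On HFWD against chow the log2 difference was -0.54 ± 0.18 with an adjusted p of 0.118, although those groups did not overlap.

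Dad1, an oligosaccharyltransferase subunit that adds sugars to new proteins, lies 12.4 kb beyond Trac on the - strand (chr14:54855154-54873779). It had 3186, 3061, 2991, 3352 and 3292 units in the HFWD+sugar livers, 3011, 3162, 3356, 3268 and 3022 in the HFWD livers, and 1971, 1733, 1948 and 2328 in the chow livers, while Trac was at the floor in all 14. Every Western diet liver was above every chow liver. It was higher on HFWD+sugar against chow by 0.68 ± 0.08 (adjusted p 9.78e-05, limma) and on HFWD against chow by 0.67 ± 0.08 (adjusted p 0.000166), and both calls held in all 23 alternative fits. Beside the Trbc2 row, which was at the floor, the one opposite row within 20 kb was Trbv31, 9.51 kb away. Tcrg-C went the other way, with a mean of 907 units, against 49.1 units in Stard3nl on the - strand. The labels used here do not say whether the libraries kept strand. Reads of rows that overlap an opposite-strand transcript cannot be told apart without it. The paired rows described here do not overlap as annotated, with gaps of 1.93 to 12.4 kb, and what their reads come from was not tested.

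**Figure D5:**
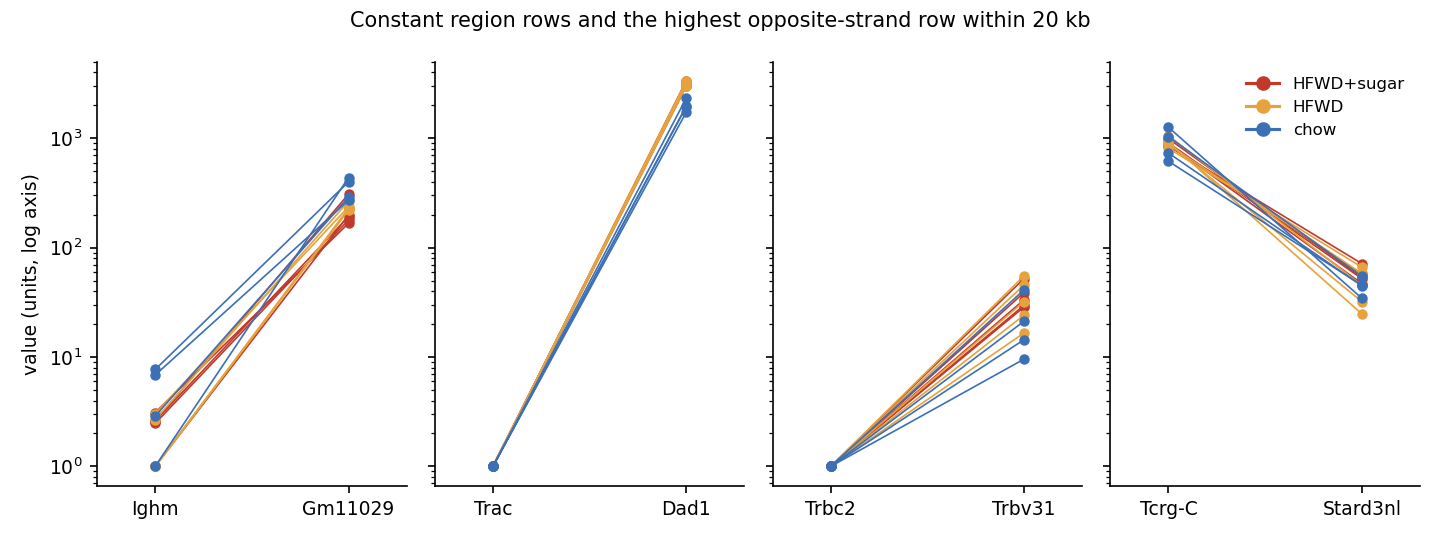
Each line joins, for 1 liver, the value of a constant region row (left) and of the opposite-strand row of highest mean within 20 kb (right), on a log axis in deposited units. Red, orange and blue are HFWD+sugar, HFWD and chow livers. Trac and Trbc2 sit at the floor of 1 in all 14 livers while Dad1 has 1733 to 3356 units and Trbv31 9.56 to 55.3, and Tcrg-C lies above Stard3nl in every liver.

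Markers of the cells that make antibodies were read beside the segments. No length scaling is given for the values, so levels of different genes are not ranked as expression. Of 12 plasma cell markers, Igj, the joining chain of polymeric antibody, 2010001M09Rik, Irf4 and Pou2af1 were at the floor in all livers. The plasma cell rows of highest mean were Tnfrsf13b, a receptor for B cell survival factors, at 3334 units, Xbp1 at 2326 and Derl3 at 503. Of 16 B cell markers, Fcrla and Faim3 were at the floor in all, and Cd22, Cd79b, Ms4a1 and Pax5 were above it in 2 to 3 livers. Cd79a, a signalling partner of the B cell receptor, averaged 13.8 units, while the rows of highest mean were Cxcr5, Blnk and Fcer2a at 1928, 1902 and 1338 units. The summed B cell list ranged from 4948 to 5992 units on HFWD+sugar, 4420 to 5650 on HFWD and 4983 to 6655 on chow. The summed T cell list, most of it the Cd8a row, ranged from 12530 to 16207 units on HFWD+sugar, 14340 to 15306 on HFWD and 16684 to 19054 on chow. The chow range lay above both others, but this sum mainly describes Cd8a. For HFWD+sugar against chow the log2 difference of Cd8a was -0.28, while the median of the 4 tested T cell rows was 0.13. The share of all tested rows without overlap was not counted.

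Symbols name rows and may not give the level of the gene. The T cell co-receptor row Cd8a averaged 15488 units, above the mean of 3036 units in Alb, which codes for serum albumin, the main secreted hepatocyte protein, in a tissue labelled liver. All 6 hepatocyte markers were above the floor in all 14 livers, with Cps1, Alb and Ttr at the highest means, 4635, 3036 and 1156 units. Of the macrophage list, Csf1r, Vsig4 and Cd5l had the highest means, at 2011, 402 and 68.1 units. The part of any such row in the segment values was not tested.

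Of the cell type markers, 0 of 9 tested B cell rows, 1 of 7 plasma cell rows, 1 of 4 T cell rows, 1 of 8 macrophage rows and 2 of 6 hepatocyte rows were called for HFWD+sugar against chow, beside 9.05% of all tested rows. Xbp1, a transcription factor of secretory cells that hepatocytes also use, had 2196, 1700, 1907, 1898 and 2090 units in the HFWD+sugar livers and 3316, 2670, 2351 and 2239 in the chow livers. It fell by 0.42 on the log2 scale (SE 0.13, adjusted p 0.0468, limma), and the call held in 10 of 23 alternative fits. Cd5l, a secreted macrophage protein that binds IgM, had 62.1, 76.0, 70.4, 195 and 126 units in the HFWD+sugar livers and 38.5, 50.4, 31.7 and 20.6 in the chow livers. It rose by 1.49 ± 0.33 (adjusted p 0.00990), in all 23 alternative fits. The Cd8a row fell by 0.28 (SE 0.08, adjusted p 0.0370), a call kept in 12 of 23. The urea cycle genes Cps1 and Ass1 fell by 1.36 and 1.08, with adjusted p of 0.00101 and 0.0487.

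Cps1 was also the one marker called for HFWD against chow, where it fell by 1.10 (adjusted p 0.00713, limma). Over all tested rows, 3.38% were called in that comparison. Median log2 differences for HFWD+sugar against chow were 0.37 for B cell, 0.11 for plasma cell, 0.13 for T cell, -0.01 for macrophage and -0.05 for hepatocyte rows, beside 0.12 over all tested rows.

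Of 16 genes that assemble and diversify the segments, Rag1, 1 subunit of the recombinase, and Vpreb2, a surrogate light chain, were at the floor in all livers. The row named for the partner Rag2 averaged 259.7 units. As for Cd8a, the values of these rows may not give the level of the genes. Of the 11 tested, 0 rose and 1 fell for HFWD+sugar against chow, where 9.05% of all tested rows were called. This was Xrcc6, the Ku70 subunit that holds broken DNA ends, with 1967, 1947, 1984, 1566 and 1642 units in the HFWD+sugar livers and 2550, 2482, 2556 and 2191 in the chow livers. It fell by 0.43 (SE 0.09, adjusted p 0.00813, limma), in 22 of 23 alternative fits. The rows of highest mean, Xrcc4, Vpreb1 and Lig4, stood at 4927, 4871 and 3573 units and were not called in any comparison.

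Genes that move antibodies or bind their constant parts were mostly measurable. Pigr, which carries dimeric IgA into bile, Fcgrt, the neonatal Fc receptor that recycles IgG, and Fcgr4, an activating IgG receptor, had the highest means, at 716, 106 and 67.0 units. Of 9 tested, 1 rose for HFWD+sugar against chow, beside 5.67% of all tested rows called higher. Fcgrt had 141, 132, 96.1, 201 and 138 units in the HFWD+sugar livers and 79.1, 104, 61.8 and 82.0 in the chow livers, and 1 HFWD+sugar liver lay below the highest chow liver. Its log2 difference was 0.77 ± 0.22 (adjusted p 0.0378, limma), a call kept in 13 of 23 alternative fits. Of 5 tested B cell survival and homing factors 0 were called, beside the same 9.05% of all tested rows called in either direction. Tnfrsf13b, Cxcr5 and Cd40lg, the T cell ligand of CD40, had the highest means, with Cd40lg at 409.5 units, and Il6, Il21r and Tnfrsf13c were at the floor in all livers. Median log2 differences for HFWD+sugar against chow were -0.03 over the assembly genes, 0.13 over the transport and Fc receptor genes and 0.0037 over the survival factors, beside 0.12 over all tested rows. In these 3 gene lists 0 members were called for HFWD against chow or for HFWD+sugar against HFWD, beside 3.38% and 0% of all tested rows.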

How the data were processed

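RNA of 14 liver libraries from C57BL/6N mice was sequenced after ribosomal RNA removal and 12 cycles of PCR, with 50 M read pairs of 100 bases planned per library, per the labels' protocols. The submitters' processing notes name FastQC, TopHat2 2.0, SAMtools and the build mm9. For the counter, its strand setting, its handling of multiply mapped reads and the scaling method, settings were not given in the sources used here. A normalized signal per gene was deposited by the authors in 1 table of 22850 rows whose floor is 1. Groups came from the treatment label, and libraries are numbered within a diet in series order. The labels do not state that each library is a separate animal, so p-values may measure only the spread between these samples. Replicates differed by 6.63 to 56.9 in chi-square per degree of freedom over 26 pairs, so no library was counted as a repeat. Between 54.5% and 65.0% of a library's low values (those worth at most 20 reads) fell on whole steps within a tolerance of 0.02. Whole reads were therefore not recovered and no count test was run.

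Values were taken as log2(value + 1), which understates changes of low rows, for the 14770 rows above the floor in at least 4 libraries. One limma 3.58.1 model (R 4.3.3) with 3 diet means and a variance trend gave 3 comparisons. Errors are SD for means and SE for log2 differences. The fit was tested on simulated data. Segment sequences were read from the mm9 genome. Alternatives were a pseudocount of 0 or 10, no filter or a filter above 10, median centring, quantile normalization, only the 2 diets compared, array weights, leaving out each library and, chosen after seeing the data, leaving out both chow 2 and chow 4. Following neighbours and list genes through these fits was also chosen after seeing the data. The members, the gene lists and the tests were chosen with earlier results of these data known. Named were all C rows, the 3 rows of highest mean per segment type in the heavy, kappa and lambda loci, called segment rows, and called members and the 3 of highest mean of each list. Tested T cell receptor rows, neighbours and further markers lie outside that rule, picked once their values were known. The value of 1 B cell marker is not reported here.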

Additional observations from a re-analysis of the deposited data

Results flagged for a closer look

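Within diets, 68 groups of values were checked for a single liver set apart from the rest of its diet, by the gap to its nearest neighbour divided by the range. Chance flags about 1 in 20 groups, and 10 were flagged here. Several come from groups in which all other livers share 1 value, where any departure gives a ratio of 1.

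Igkv14-126 was high in HFWD+sugar 5, at 31.3 units with the next liver at 16.9 (ratio 0.761). Trgv2 was high in HFWD+sugar 2 at 2.82 units (0.833), in HFWD 4 at 1.34 (1.0) and in chow 2 at 1.33 (1.0). Trdv5 was high in HFWD 2, at 6.04 units with the other HFWD livers at the floor (1.0). Gm11029 was high in HFWD+sugar 3, at 308 units with the next liver at 199 (0.775). The lambda constant row Iglc2 was high in HFWD 4, at 2.68 units with the other HFWD livers at the floor (1.0).

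For counts of rows above the floor, the lambda locus had 2 in HFWD 1 and 2 in chow 4, where all other livers of the same diet had 1 (1.0 in both). The T cell receptor loci had 4 in chow 4, the lowest of its diet, where the other chow livers had 6 (1.0).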

How the results depend on the processing

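No paired analysis was possible because the labels give the diets no shared replicate numbers. Few reads lie behind the segment values. A value of 1 to 10 units rests on a few reads and the heavy locus on at most 4.68 read equivalents in a liver. Chow 4 was the shallowest library. Differences among rows at the floor cannot be seen in these values, and the part of depth in this was not tested.

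The call of 0 segment rows held in all comparisons under every alternative, with 4 exceptions. For HFWD+sugar against chow, array weights gave 1.0 call (Trbv31, 1.26), leaving out HFWD+sugar 5 gave 1.0 (Trdv5, 1.76, a row that passed the filter through HFWD+sugar livers) and leaving out both chow 2 and chow 4 gave 2.0 (Trbv31, 1.52, and Tcrg-C, 0.42). Leaving out both chow livers also gave 1.0 call for HFWD against chow (Tcrg-C, 0.43). Leave-one-out counts of called segment rows ran from 0.0 to 1.0 for HFWD+sugar against chow. The cause was not tested.

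Counts over all rows, 1336 for HFWD+sugar against chow and 499 for HFWD against chow, moved more. Without a filter they were 774 and 309, with median centring 744 and 300, with only the 2 diets compared 768 and 270.0, and with array weights 2174 and 1021. Without both chow 2 and chow 4 the count for HFWD against chow was 920.0. Median centring called 607 rows higher and 137 lower for HFWD+sugar against chow, beside 837 and 499, and 247 and 53 for HFWD against chow, beside 361 and 138. Leave-one-out counts ran from 679 to 1768, from 260.0 to 1050.0 and, for HFWD+sugar against HFWD, from 0.0 to 1.0. The count for HFWD+sugar against chow moved over 1.5 times without HFWD+sugar 2 (866), 4 (679) or 5 (883) and without chow 1 (855) or 3 (747). That for HFWD against chow did so without HFWD 1 (325) or 4 (260.0) and without chow 1 (309), 3 (301) or 4 (1050.0). HFWD+sugar against HFWD gained its call without HFWD 1. Quantile normalization moved the median of all tested rows for HFWD+sugar against chow to -0.01, beside 0.12 in the reported fit.

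No segment row was called in the reported fit, and every direction that turned was in a segment row. Neighbours and list genes were followed only in comparisons that called them, Gm11029 apart, and Cps1 and Ass1 were not followed. Uncalled neighbours and list genes could therefore show no turn. The filter above 10 left 7 segment rows tested, without Igkv2-112, Trdv5, Ighm and Trgv2, and the fit of HFWD and chow alone left out Trdv5 and Trgv2. Under quantile normalization the log2 differences for HFWD+sugar against chow were -0.10 (Trbv20), -0.17 (Igkv2-112) and -0.13 (Trav15d-1-dv6d-1), and for HFWD+sugar against HFWD -0.041 (Trbv31) and 0.015 (Tcrg-C). Median centring gave 0.0099 and array weights 0.024 for Trgv2 in HFWD against chow, and array weights -0.38 for Trav15d-1-dv6d-1 in HFWD+sugar against chow. Without both chow 2 and chow 4, HFWD against chow gave 0.054 (Trbv20), 0.045 (Trgv2), -0.26 (Trav15d-1-dv6d-1) and -0.17 (Iglv3), and HFWD+sugar against chow -0.78 (Trav15d-1-dv6d-1).

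Leave-one-out differences that crossed 0 ran, for HFWD+sugar against chow, from -0.21 to 0.81 (Igkv2-112), -0.13 to 0.21 (Tcrg-C) and -0.65 to 0.76 (Trav15d-1-dv6d-1). For HFWD against chow they ran from -0.22 to 0.70 (Iglv3), -0.12 to 0.23 (Tcrg-C), -0.13 to 1.29 (Trav15d-1-dv6d-1), -0.38 to 0.40 (Trbv20), -0.65 to 0.085 (Trdv5) and -0.055 to 0.045 (Trgv2). For HFWD+sugar against HFWD they ran from -0.060 to 0.036 (Tcrg-C), -0.13 to 0.62 (Trbv20), -0.011 to 0.56 (Trbv21) and -0.069 to 0.35 (Trbv31).

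Shares and sums moved as their construction requires. With a floor of 10 in place of 1, the mean share of rows above it was 0.0% for heavy rows in every diet, 0.952% for kappa rows in every diet, and 1.76%, 1.67% and 1.76% for T cell receptor rows on HFWD+sugar, HFWD and chow. With 1 subtracted from each row, the sums on HFWD+sugar, HFWD and chow were 2.88, 2.32 and 5.15 units for heavy and 24.5, 29.1 and 18.7 for kappa rows, and 979.8 and 987 for T cell receptor rows on HFWD+sugar and HFWD. Without the row of highest mean they were 143, 143 and 143 for heavy, 112, 112 and 110.1 for kappa, 3.65, 2.63 and 2.08 for lambda, and 308, 301 and 293 for T cell receptor rows. Scaling libraries to equal totals gave heavy sums of 151 on HFWD+sugar and 142 on HFWD, and scaling to equal medians 149 on HFWD+sugar.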

Other observations

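Gm10360, a coding row of 269 bases inside the kappa locus (chr6:70374156-70374424, + strand), carried far higher values than the kappa segments around it. It had 249, 169, 167, 245 and 464 units in the HFWD+sugar livers, 373, 284, 471, 474 and 335 in the HFWD livers, and 208, 165, 226 and 445 in the chow livers. The groups overlapped, with adjusted p of 0.984 for HFWD+sugar against chow, 0.285 for HFWD against chow and 0.568 for HFWD+sugar against HFWD by limma. It was chosen after its values were seen, and what its reads come from was not tested.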
